A study of Mus musculus with 6 samples.

Results

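The 40 genes described here are those through which fat cells switch on their identity, take up fatty acids and glucose, make and store triglyceride, release it again and secrete adipokines. They were chosen by name, as a gene list, and were read in primary mouse osteoblasts on whole-genome arrays. A probe was found for all 40. Of these, 34 passed the filter on dim signal and are among the 23058 genes tested. The osteoblasts came from the calvaria of newborn CD1 mice 2 to 5 days old. There were 2 arrays of undifferentiated osteoblasts grown to confluence in medium with serum, 2 arrays of osteoblasts kept after confluence for 30 days in differentiation medium, which contains ascorbic acid and β-glycerol phosphate, and 2 arrays of osteoblasts kept for the same 30 days in that medium with cabozantinib at 100 nM. The study's results section names an earlier day for its array comparison than its methods and the labels do, and the time of the labels is used. Cabozantinib is a kinase inhibitor that acts on MET and VEGFR2 among others. No gene was altered in any group, and the cells were a primary culture, not a line.

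Adipocytes and osteoblasts arise from a common mesenchymal progenitor. Adipocyte fate is driven by the nuclear receptor PPARγ (Pparg) together with C/EBPα (Cebpa), which switch on genes for fatty acid uptake, droplet proteins and adipokines. Lipoprotein lipase frees fatty acids from circulating lipoproteins, CD36 takes them up, fatty acid binding proteins carry them inside the cell, acyltransferases join them to glycerol, and perilipins coat the droplet in which the triglyceride is kept. Several of these genes, among them Lpl, Cd36, Fabp4 and Fabp5, are also expressed by macrophages.

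A level is given as the log2 of the probe's signal minus the 75th percentile of its own array, so that 0 is the 75th percentile and each unit is a doubling. Levels are compared between arrays for a single probe, never between genes. Where the signal of a marker list is summed, the probe that gives most of the signal is named, which does not rank the genes by RNA. A probe that the scanner software did not call well above background on any array of a group has only a bound there, and the fold is then given as at least the stated value. The bound is the higher of the dim probe's own signal and the lowest signal called well above background on that array, averaged over the arrays of the dim group. A gene that the filter kept only through the groups where it is high was in part selected for being higher there. The adjusted p printed beside such a bound therefore describes the fit and supports nothing. This holds for Adipoq, Lpin1, Ppargc1a, Cfd, Bscl2 and Runx2 below. The arrays were of unequal brightness, with a 75th percentile of 678 and 1975 intensity units in undifferentiated osteoblasts, 1213 and 721 in differentiated osteoblasts and 1406 and 1092 with cabozantinib, and between 58.8% and 72.9% of spots were well above background. No spot was saturated. Nothing in the labels says that the 2 arrays of a group came from separate cultures, so the p-values measure only the spread between these arrays, which may be technical. In whole cultures, fewer cells of a type and less RNA per cell cannot be told apart.

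The first comparison, differentiated against undifferentiated osteoblasts, asks how these genes differed after the 30 days in differentiation medium. Time in culture and medium changed together, so they cannot be told apart. Of the 40, 10 rose and 1 fell at an adjusted p under 0.05 in limma, 23 were tested and did not pass, and 6 were not tested. Over all genes tested, 5.26% rose and 4.46% fell, or 9.72% in either direction. The median log2 fold change of the 34 tested genes was 0.46, or 0.42 with genes under background at their bound, beside 0.11 over all genes. The rise lay in fatty acid and glucose uptake, where 5 of 7 genes rose, and in 2 of 5 regulators, 1 droplet coat gene, 1 enzyme of the glycerol branch and 1 adipokine. None of the 8 genes of fatty acid synthesis passed the test. The count includes Adipoq, above background only in the 30-day cultures, and Lpin1, above it only in undifferentiated osteoblasts, which both passed the filter through the groups where they are high. With only probes above background on all 6 arrays, which leaves out both, 9 rose and 0 fell, beside 10.6% called in either direction over all genes left. Under normexp, a background correction that adds an offset of 50 and starts from the median spot signal in place of the processed signal, the calls of Adipoq, Fabp5, Gpd1, Lpin1, Pparg and Slc2a4 were lost, and with no filter on dim signal those of Fabp5, Lpin1, Pparg and Slc2a4. The paired t-test of the study's methods, after Benjamini-Hochberg adjustment, called no gene in any comparison. A call lost under it, or a high adjusted p from it, therefore says nothing about a single gene.

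**Figure D1:**
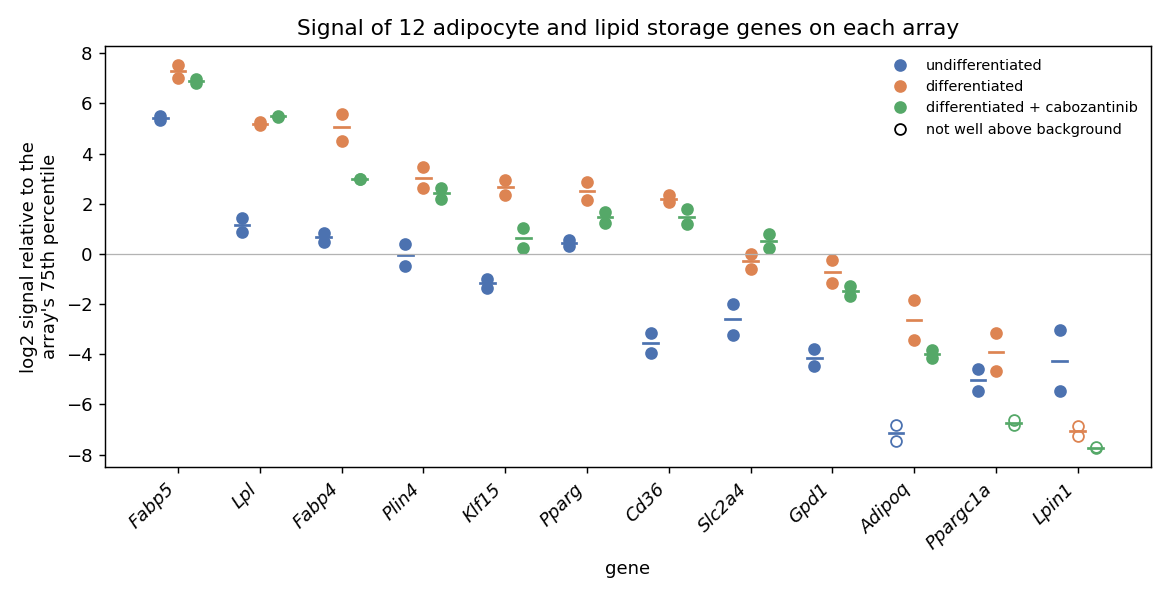
Log2 signal relative to the array's 75th percentile (y axis) of the 12 genes with an adjusted p under 0.05 in any of the 3 comparisons (x axis), with 1 point per array, a short line at the mean of each group's 2 arrays and open points for signal not well above background. For 10 of the genes both arrays of differentiated osteoblasts lie above both arrays of undifferentiated osteoblasts, and Lpin1 lies below. The genes were picked by these tests, so that order is no further result.

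Among the regulators, Pparg, the nuclear receptor that commands the adipocyte program, was at 0.32 and 0.55 in undifferentiated osteoblasts, 2.17 and 2.86 in differentiated osteoblasts and 1.67 and 1.24 with cabozantinib. The 3 groups did not overlap, with the treated cultures in between. Pparg was 4.23-fold higher in differentiated than in undifferentiated osteoblasts (log2 fold change 2.08 ± 0.51 SE, adjusted p = 0.0303). The rise passed the test with all 6 arrays but not without either undifferentiated or either differentiated array, where the adjusted p was between 0.063 and 0.425. Klf15, a Krüppel-like factor that acts upstream of Pparg in adipogenesis and is also induced by glucocorticoids, was at -1.36 and -0.99 in undifferentiated osteoblasts, 2.94 and 2.37 in differentiated osteoblasts and 0.22 and 1.04 with cabozantinib. It rose 14.3-fold (log2 fold change 3.83 ± 0.53 SE, adjusted p = 0.00227), the largest change of the 5 regulators, with both differentiated arrays above all others. Without undifferentiated replicate 2 its adjusted p was 0.0501.

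Cebpa, the partner of Pparg in the mature fat cell, was not called. Its levels were -2.19 and -1.09 in undifferentiated osteoblasts, -2.70 and -2.43 in differentiated osteoblasts and -0.74 and -1.71 with cabozantinib. The log2 fold change of -0.92 ± 0.58 SE with differentiation did not pass the test (adjusted p = 0.459), and the treated arrays overlapped the undifferentiated ones. Srebf1, which drives lipid synthesis genes, changed by 0.44 ± 0.68 SE (adjusted p = 0.872). Ppargc1a, the coactivator of mitochondrial genes, was at -4.58 and -5.45 in undifferentiated osteoblasts and -4.66 and -3.14 in differentiated osteoblasts, ranges that overlap, and was not well above background in either treated array.

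The 5 uptake and binding genes that rose held the largest measured change of the list. Cd36, the fatty acid translocase, went from -3.94 and -3.14 in undifferentiated osteoblasts to 2.35 and 2.06 in differentiated osteoblasts, and was at 1.18 and 1.79 with cabozantinib. This is a 53.5-fold rise (log2 fold change 5.74 ± 0.52 SE, adjusted p = 0.000336). Under normexp the log2 fold change was 4.57 (adjusted p = 0.00189), the lowest of all settings, which ranged up to 6.24. The Cd36 call was lost only with the methods' t-test (adjusted p = 0.832), which called no gene. Fabp4, the adipocyte fatty acid binding protein also known as aP2, was at 0.84 and 0.49 in undifferentiated osteoblasts, 4.51 and 5.58 in differentiated osteoblasts and 3.0 and 2.98 with cabozantinib. It rose 20.9-fold (log2 fold change 4.38 ± 0.54 SE, adjusted p = 0.00134). Lpl, lipoprotein lipase, was at 0.86 and 1.42 in undifferentiated osteoblasts, 5.25 and 5.14 in differentiated osteoblasts and 5.48 and 5.52 with cabozantinib. It rose 16.6-fold (log2 fold change 4.05 ± 0.49 SE, adjusted p = 0.00129), and unlike Fabp4 its treated arrays lay at the level of the untreated ones. A second, dimmer Lpl probe changed by only 0.87 on the log2 scale (adjusted p = 0.647), so the probes of this gene disagree. With the probes averaged the log2 fold change was 2.46 (adjusted p = 0.0231, over all settings 1.84e-06 to 0.829).

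The remaining uptake genes moved less. Slc2a4, the insulin-responsive glucose transporter GLUT4, was at -1.99 and -3.23 in undifferentiated osteoblasts, -0.60 and 0.00 in differentiated osteoblasts and 0.24 and 0.81 with cabozantinib. Its 4.97-fold rise (log2 fold change 2.31 ± 0.59 SE, adjusted p = 0.0344) did not pass under quantile normalization (2.49, adjusted p = 0.0503). The call was also lost without differentiated replicate 2, at a log2 fold change of 1.85, and without undifferentiated replicate 2, at 1.41. Fabp5, the epidermal-type fatty acid binding protein that many cell types make, was at 5.52 and 5.33 in undifferentiated osteoblasts, 7.03 and 7.53 in differentiated osteoblasts and 6.81 and 6.99 with cabozantinib. It rose 3.61-fold (log2 fold change 1.85 ± 0.49 SE, adjusted p = 0.0428). The call was lost without any 1 of 5 arrays, all but undifferentiated replicate 1, with adjusted p between 0.0634 and 0.488. Acsl1, which activates fatty acids with coenzyme A, had a log2 fold change of 1.32 ± 0.50 SE (adjusted p = 0.148). It was called without the replicate block, the model term that pairs arrays of the same number (adjusted p = 0.0489, over all settings 0.0121 to 0.957). Aqp7, the glycerol channel, had a log2 fold change of 0.30 ± 0.58 SE (adjusted p = 0.913). The 2 Acsl1 probes differed in sign, the dimmer at -1.05 (adjusted p = 0.254).

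The droplet coat showed a divided picture. Plin4, a perilipin that coats nascent droplets, was at 0.38 and -0.48 in undifferentiated osteoblasts, 2.61 and 3.45 in differentiated osteoblasts and 2.21 and 2.62 with cabozantinib. It rose 8.44-fold (log2 fold change 3.08 ± 0.56 SE, adjusted p = 0.00749), a call that was lost without differentiated replicate 2 (adjusted p = 0.0714). Plin1, the perilipin of the mature fat cell droplet, was at -4.06 and -5.89 in undifferentiated osteoblasts and at -5.35 in the 1 differentiated array where it was well above background. The other differentiated array, at -7.65, and both treated arrays, at -7.71 and -7.08, were not well above background. Its log2 fold change with differentiation was -1.52 ± 0.82 SE (adjusted p = 0.355), and from -3.17 to 0.13 with 1 array left out. Plin1 was called lower without differentiated replicate 2, which leaves 1 array in that group. With both arrays of each group kept, it was called lower only with the undifferentiated replicate numbers exchanged, a setting chosen after seeing the data. Plin2, the droplet coat found in most cells, stayed between 2.57 and 3.41 on all 6 arrays, with a log2 fold change of 0.38 ± 0.50 SE (adjusted p = 0.827).

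Of the other droplet and lipolysis genes, Cidea, a droplet protein of brown fat, changed by 1.52 ± 0.66 SE on the log2 scale (adjusted p = 0.218) and Pnpla2, the triglyceride lipase ATGL, by 1.34 ± 0.55 SE (adjusted p = 0.193). Cidec, which enlarges droplets by fusion, was represented by probes that disagree. The brighter, at -2.96 and -3.86 in undifferentiated and -3.31 and -2.84 in differentiated osteoblasts, changed by 0.33 ± 0.54 SE (adjusted p = 0.881). The dimmer was well above background only in differentiated osteoblasts, at -4.75 and -3.03, and was at least 4.54-fold higher there than in undifferentiated osteoblasts. It is not the probe by which the gene was counted, and no test is given for it. Lipe, hormone-sensitive lipase, was well above background on 1 of the 6 arrays and was not tested.

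No gene of fatty acid synthesis was called with the main settings. The 8 genes of this branch had log2 fold changes between -1.17 (Scd1) and 0.83 (Acaca) with a median of 0.08, and 4 were positive and 4 negative. Fasn, fatty acid synthase, was at -2.43 and -2.52 in undifferentiated osteoblasts, -2.79 and -2.95 in differentiated osteoblasts and -2.54 and -2.25 with cabozantinib. The difference with differentiation was -0.39 ± 0.49 SE (adjusted p = 0.806). Scd1, the desaturase that makes oleate and a known target of SREBP-1, was at 0.26 and 1.83 in undifferentiated osteoblasts, 0.11 and -0.36 in differentiated osteoblasts and 1.17 and 0.29 with cabozantinib, and its change of -1.17 ± 0.64 SE did not pass (adjusted p = 0.361). With 1 array left out the Scd1 change ranged from -2.29 to -0.05. Scd1 was called lower without undifferentiated replicate 1, which leaves 1 array in that group. With both arrays of each group kept, it was called lower only with the undifferentiated replicate numbers exchanged, a setting chosen after seeing the data. Acly, ATP citrate lyase, changed by 0.41 ± 0.53 SE (adjusted p = 0.827) and Elovl6, a fatty acid elongase, by 0.21 ± 0.49 SE (adjusted p = 0.933). A p that misses the threshold does not show that these levels were equal. One of 3 probes of Me1, malic enzyme, was lower in differentiated osteoblasts by 2.36 on the log2 scale (log2 fold change -2.36, adjusted p = 0.041), while the brightest, by which the gene was counted, changed by -0.51 (adjusted p = 0.699). For Thrsp, which is induced by carbohydrate and thyroid hormone, the probe was well above background in neither undifferentiated array and in 1 differentiated array.

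In triglyceride synthesis Gpd1 was the 1 gene well above background in both groups that passed the test. Gpd1, the glycerol-3-phosphate dehydrogenase that provides the glycerol backbone, was at -3.81 and -4.45 in undifferentiated osteoblasts, -1.15 and -0.25 in differentiated osteoblasts and -1.69 and -1.27 with cabozantinib. It rose 10.8-fold (log2 fold change 3.43 ± 0.54 SE, adjusted p = 0.00404), or by 2.21 on the log2 scale under normexp (adjusted p = 0.126, with a range from 9.5e-05 to 0.874 over all settings). Lpin1, the phosphatidate phosphatase, was at -3.04 and -5.46 in undifferentiated osteoblasts and was not well above background on the other arrays, at -6.85 and -7.26 in differentiated osteoblasts and -7.75 and -7.70 with cabozantinib. It was at least 3.16-fold lower after differentiation (adjusted p = 0.0218, for a gene kept by the filter through undifferentiated osteoblasts alone). The call was lost without differentiated replicate 1 (adjusted p = 0.094), under quantile normalization (0.06), with the value table of the authors (0.0568), with dim probes kept in (0.0581) and under normexp, where the log2 fold change was -0.71 (adjusted p = 1), below the bound. Over all settings the adjusted p ranged from 0.00249 to 1. The acyltransferases Agpat2, Dgat1 and Dgat2 had log2 fold changes of -1.41 ± 0.56, -2.18 ± 0.75 and -1.39 ± 0.55 (SE), none of which passed the test (adjusted p = 0.171, 0.114 and 0.172), and Gpam, the first acyltransferase of the pathway, one of 0.75 ± 0.52 SE (adjusted p = 0.518). With only the arrays compared, however, Dgat1 was called lower. It was also the 1 gene of the list past the methods' threshold of 2-fold and an unadjusted p in the paired t-test. Pck1, which feeds glyceroneogenesis, was not well above background on any array.

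Adipoq, adiponectin, was the 1 adipokine of 4 that could be tested. It was not well above background in undifferentiated osteoblasts, at -6.83 and -7.47, and was at -3.45 and -1.83 in differentiated osteoblasts and at -3.84 and -4.16 with cabozantinib. Differentiated osteoblasts were at least 10.8-fold higher than undifferentiated osteoblasts (adjusted p = 0.00219, for a gene kept by the filter through the other groups). This bound holds for the processed signal only. Under normexp the log2 fold change was 1.23 and the call was lost (adjusted p = 0.702), as it was without undifferentiated replicate 2 (adjusted p = 0.0651), and the adjusted p over all settings ranged from 6.67e-08 to 0.881. Lep (leptin) and Orm1 (orosomucoid) were not well above background on any array. Retn, resistin, was well above background only on differentiated array 2, at both of its probes. Of the brown fat genes, Ucp1, the uncoupling protein, was not well above background on any array, and Adrb3, the β3-adrenergic receptor, was measured on all 6 with a log2 fold change of -1.08 ± 0.62 SE (adjusted p = 0.395).

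**Figure D2:**
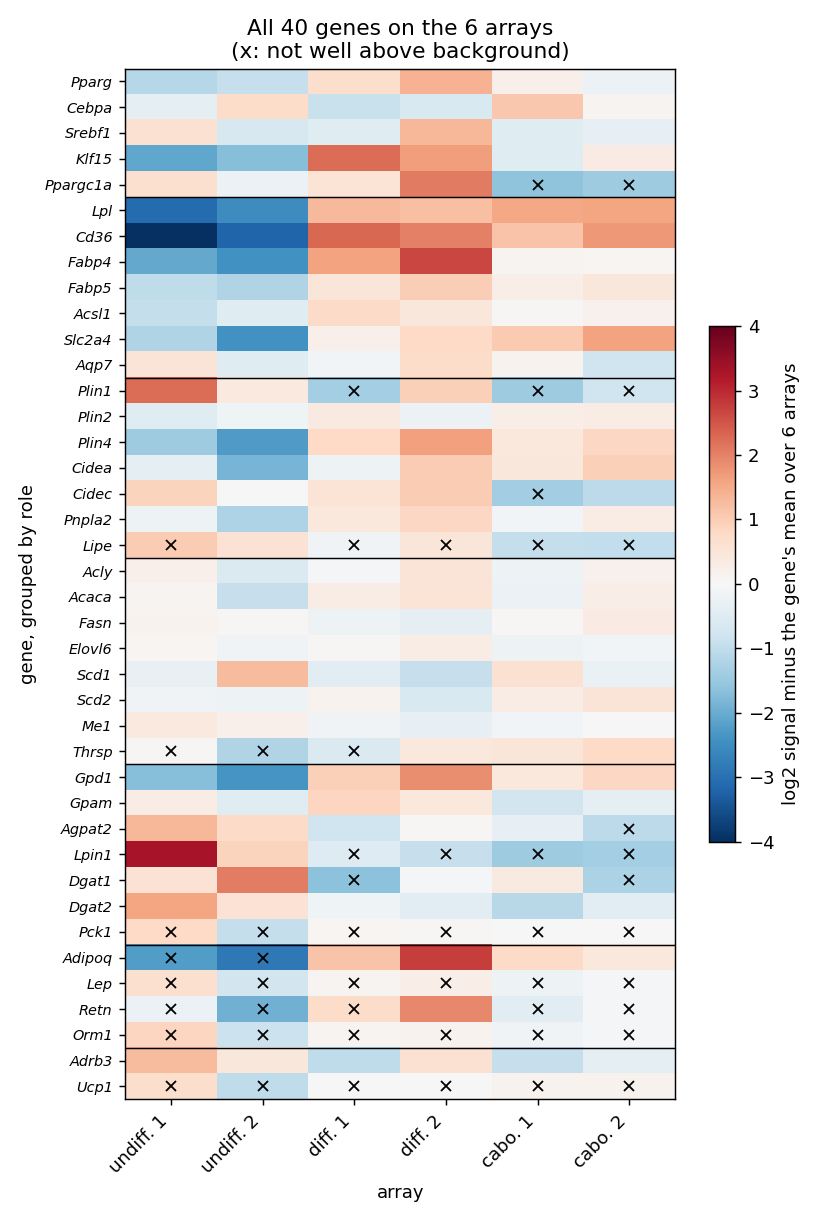
Log2 signal of all 40 genes minus each gene's mean over the 6 arrays (colour, red higher), with 1 column per array, genes grouped by role between black lines, and a cross where the signal was not well above background. Cd36, Lpl, Fabp4 and Klf15 turn from blue to red between undifferentiated and differentiated osteoblasts, and Pck1, Lep, Orm1 and Ucp1 carry a cross on every array.

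The list's name was set against 6 defining genes of the mature adipocyte. Of 6 defining adipocyte genes, Adipoq and Fabp4 rose with differentiation, Cidec and Plin1 did not pass the test, Lipe was above background on 1 array, and Lep on none. The summed signal of the 6, in units of the array's 75th percentile, was 2.01 and 1.51 in undifferentiated osteoblasts, 22.9 and 48.4 in differentiated osteoblasts and 8.14 and 7.99 with cabozantinib. The Fabp4 probe gave the most signal of the 6, so the sum largely follows Fabp4.

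The second comparison, differentiated osteoblasts with against without cabozantinib, asks whether the drug changed these genes. Of the 40 genes, 1 fell at an adjusted p under 0.05, none rose, and 33 were tested without passing. Across all genes tested 2.36% fell and 0.117% rose, 2.48% in either direction. The median log2 fold change was -0.45 for the 34 genes, or -0.39 with dim genes at their bound, beside -0.29 for all genes, and 6 of the 34 had an unadjusted p under 0.05, beside 5392 of all 23058 genes. Both treated arrays were scanned in a different session from the other 4 arrays, so treatment and scan session cannot be told apart in any comparison that uses them.

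The gene that fell was Ppargc1a, from -4.66 and -3.14 without the drug to -6.82 and -6.64 with it, where it was not well above background. It was at least 2.98-fold lower (adjusted p = 0.0492). The call was lost without differentiated replicate 2 and without either cabozantinib array. The fitted log2 fold change, -2.83 with all arrays, was -1.90 without differentiated replicate 2 and -3.76 without differentiated replicate 1. It was -2.90 without cabozantinib replicate 1 and -2.76 without cabozantinib replicate 2. The call was also lost with dim probes kept in, and with the methods' t-test, which called no gene. Under quantile normalization and with the value table of the authors it was lost at -1.96. Normexp ended it too, at -1.01, below the bound. Over all settings tried the adjusted p ran from 0.0044 to 1. A further 3 genes had differences of similar size. Klf15 was 4.07-fold lower with cabozantinib (log2 fold change -2.03 ± 0.53 SE, adjusted p = 0.0637), Fabp4 was 4.15-fold lower (-2.05 ± 0.54 SE, adjusted p = 0.0632), and Cidec at its brighter probe differed by -2.00 ± 0.54 SE (adjusted p = 0.067). In each of the 3 both treated arrays lay below both untreated arrays, but the genes were picked for the size of their difference. How many of all genes show that order was not counted, so it adds no support. With 1 array left out the log2 fold change ranged from -2.61 to -1.44 for Klf15, from -2.69 to -1.42 for Fabp4 and from -2.38 to -1.63 for Cidec, each at its extremes without 1 of the differentiated arrays. Cidec was at -0.93 under normexp. Without the replicate block the 3 genes passed too. The adjusted p for Klf15 was then 0.0305 and ranged from 0.00976 to 1 over all settings tried, and for Fabp4 it was 0.0311 with a range from 0.00625 to 1. For Cidec it was 0.0311 with a range from 0.0046 to 1. The dimmer Cidec probe was not well above background in either treated array and was at least 3.0-fold lower than without the drug, again with no test.

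Adipoq and Pparg lay lower in the treated arrays by amounts that did not pass. The log2 fold change was -1.36 ± 0.62 SE for Adipoq (adjusted p = 0.225) and -1.06 ± 0.51 SE for Pparg (adjusted p = 0.253). The Adipoq value rested largely on differentiated replicate 2, being -0.31 without it and -2.41 without differentiated replicate 1. Other genes that rose with differentiation were closer in the treated and untreated cultures. Lpl had a log2 fold change of 0.31 ± 0.49 SE (adjusted p = 0.843), Cd36 one of -0.72 ± 0.52 SE (adjusted p = 0.491) and Plin4 one of -0.61 ± 0.56 SE (adjusted p = 0.63). Slc2a4 was on the higher side, at 0.82 ± 0.59 SE (adjusted p = 0.487), as was Cebpa at 1.34 ± 0.58 SE (adjusted p = 0.205). In fatty acid synthesis the log2 fold changes ran from -0.41 to 0.85 with a median of 0.32 and none passed.

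**Figure D3:**
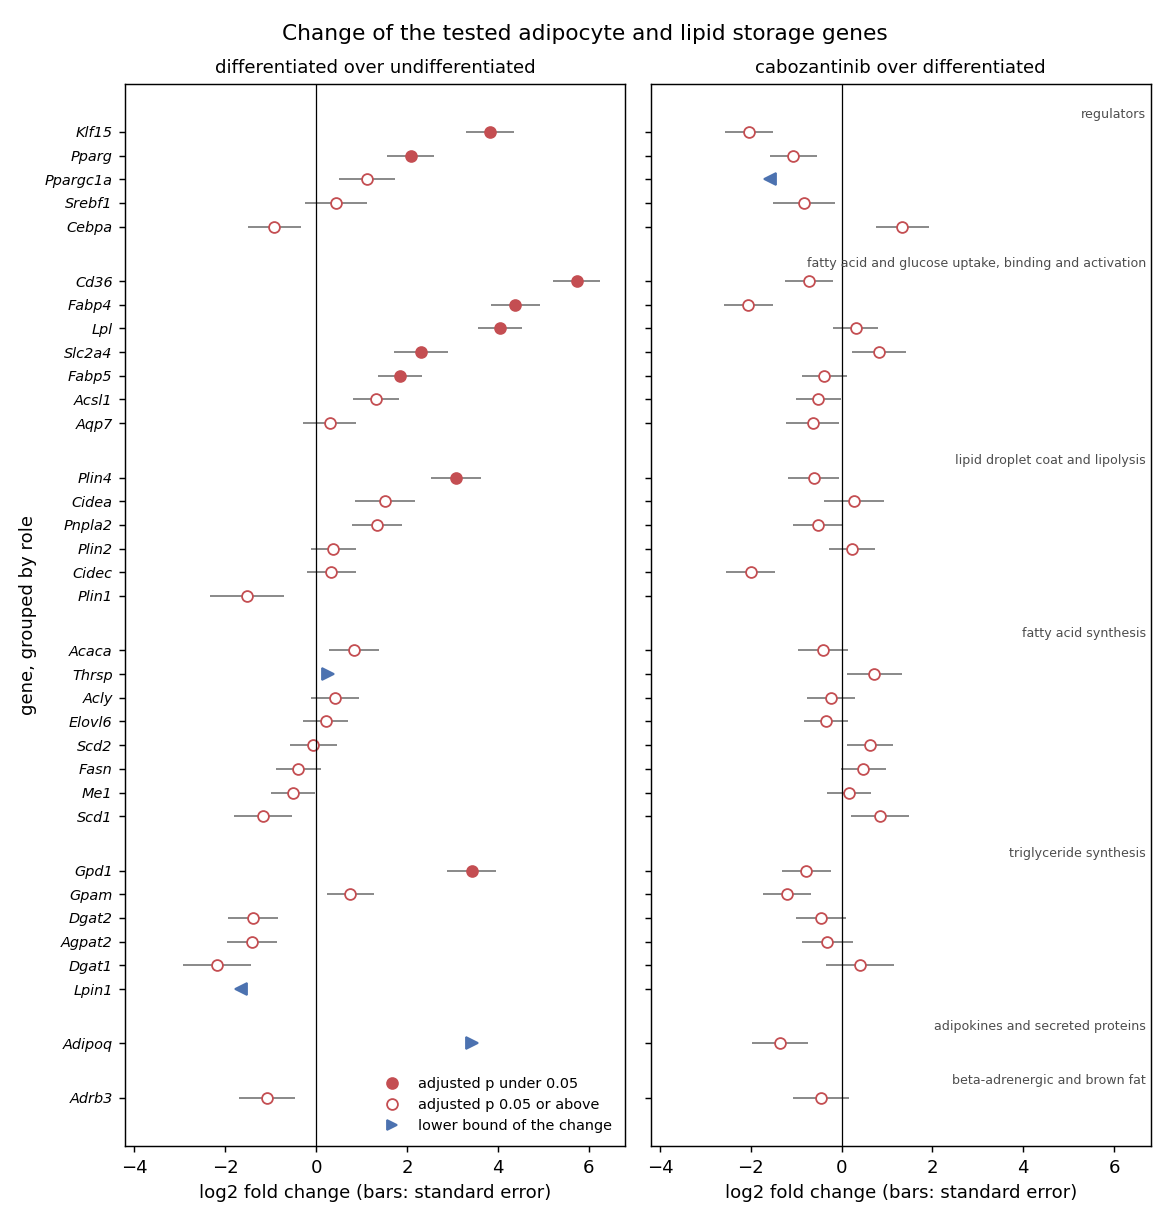
Log2 fold change of the tested genes (x axis, bars are the standard error) grouped by role (y axis), for differentiated over undifferentiated osteoblasts on the left and cabozantinib over differentiated osteoblasts on the right, with filled circles for an adjusted p under 0.05 and triangles, without a bar, at the lower bound of a change where 1 group was not well above background. All 9 filled circles on the left lie to the right of 0, Adipoq, Lpin1 and Thrsp stand there at their bounds, and on the right no circle is filled and Ppargc1a stands at its bound of 2.98-fold lower. Plin1 and Lpin1 have neither a measured change nor a bound on the right and are not drawn there.

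The treated cultures were also set against undifferentiated osteoblasts, a comparison that shares its arrays with both of the others. In it 7 of the 40 genes were higher and 1 lower, beside 4.67% higher, 8.68% lower and 13.4% in either direction over all genes. Their median log2 fold change was 0.42 and that of all genes -0.35. Cd36 was 32.5-fold higher (adjusted p = 0.000829), Lpl 20.5-fold (adjusted p = 0.00131), Slc2a4 8.80-fold (adjusted p = 0.0112), Gpd1 6.29-fold (adjusted p = 0.0156), Plin4 5.53-fold (adjusted p = 0.0219) and Fabp4 5.02-fold (adjusted p = 0.0235). Adipoq was at least 4.21-fold higher (adjusted p = 0.0136), and Lpin1 at least 2.34-fold lower (adjusted p = 0.0105), both again kept by the filter only through the groups where they are high. Under normexp both lay below these bounds, Adipoq at a log2 fold change of 0.21 (adjusted p = 0.909, over all settings from 0.000164) and Lpin1 at -1.19 (adjusted p = 0.603, over all settings 2.33e-05 to 0.619). With only probes above background on all 6 arrays, 6 were higher and 0 lower, beside 7.71% called over all genes left. Dimmer probes of Acly and Adrb3 were not well above background in either treated array. They were at least 1.81-fold and 2.36-fold lower than in undifferentiated osteoblasts, with no test given. The brighter probes, by which these genes were counted, changed by 0.16 (adjusted p = 0.88) and -1.53 (adjusted p = 0.124) on the log2 scale. Cd36 and Lpl passed without any 1 of the 6 arrays, whereas the calls of Slc2a4, Gpd1, Plin4, Fabp4, Adipoq and Lpin1 were each lost without at least 1. Without cabozantinib replicate 2 the adjusted p was 0.105 for Slc2a4, 0.146 for Gpd1, 0.218 for Plin4 and 0.143 for Fabp4, and without cabozantinib replicate 1 it was 0.0743 for Adipoq and 0.0752 for Lpin1. Klf15, at a log2 fold change of 1.81 (adjusted p = 0.0512), Fabp5 at 1.47 (adjusted p = 0.0749) and Pparg at 1.02 (adjusted p = 0.205) did not pass, although Klf15 (adjusted p = 0.0246) and Fabp5 (adjusted p = 0.0261) did without the replicate block. Over the settings tried, that adjusted p ranged from 0.00981 to 0.619 for Klf15 and from 0.00496 to 0.619 for Fabp5. Agpat2, Cidec and Dgat2 were called lower without the block (adjusted p = 0.0349, 0.0308 and 0.0281, over all settings up to 0.619, 0.62 and 0.654). Plin1, not well above background in either treated array, was at least 1.42-fold lower and did not pass with the main settings. With only the arrays compared it was called lower, but the filter kept it through the untreated groups. Under normexp only Cd36 and Lpl were called. Gpd1 was then at a log2 fold change of 1.52 (adjusted p = 0.468), against 2.65. Slc2a4, Plin4 and Fabp4 lost their calls at 2.60, 2.50 and 2.30, against 3.14, 2.47 and 2.33.

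Beyond the 40 genes, 87 further genes of adipogenesis, lipid storage and fatty acid oxidation were read, of which 81 were tested. With differentiation 5 rose and 2 fell, Cfd and Bscl2 of the dim genes among them, a share near the 9.72% called over all genes, and their median log2 fold change was 0.15, beside 0.11 over all genes. Cfd, the complement factor adipsin that fat cells secrete, was not well above background in undifferentiated osteoblasts, at -6.82 and -8.57, and was at -0.42 and 0.45 in differentiated osteoblasts and -3.88 and -3.43 with cabozantinib. Differentiated osteoblasts were at least 68.1-fold higher (adjusted p = 0.000309, for a gene kept by the filter through the 30-day cultures alone). This bound too holds for the processed signal only, since under normexp the log2 fold change was 3.55 (adjusted p = 0.0238, over all settings 1.63e-22 to 0.856), below it. Cfd was also the 1 of the 81 genes called between treated and untreated cultures. With cabozantinib it was 12.7-fold lower (log2 fold change -3.67 ± 0.66 SE, adjusted p = 0.0477), a call that was lost without differentiated replicate 2 (log2 fold change -2.91, adjusted p = 0.148) or cabozantinib replicate 1 (-3.23, adjusted p = 0.168). The log2 fold change was -4.43 without differentiated replicate 1 and -2.84 under normexp. It was also lost under normexp, under quantile normalization, with the value table of the authors, with dim probes kept in and with the methods' t-test, with adjusted p from 0.000788 to 1 over all settings. The treated arrays were at least 5.35-fold above the undifferentiated ones (adjusted p = 0.00637), a call lost under normexp at a log2 fold change of 0.71 (adjusted p = 0.663, over all settings 4.11e-07 to 0.663).

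Apoe, the lipoprotein component made by fat cells, macrophages and others, rose 34.7-fold with differentiation (log2 fold change 5.12 ± 0.51 SE, adjusted p = 0.000505), from 2.67 and 2.10 to 7.26 and 7.74, and was at 7.18 and 7.48 with cabozantinib. Nr1h3, the oxysterol receptor LXRα, rose 5.47-fold (log2 fold change 2.45 ± 0.57 SE, adjusted p = 0.0229), and Zfp423, a zinc finger factor that commits progenitors to the fat lineage, rose 4.19-fold (2.07 ± 0.57 SE, adjusted p = 0.0488). Both calls were lost under quantile normalization (adjusted p = 0.0516 for Nr1h3 and 0.0818 for Zfp423) and with the authors' values (0.0509 and 0.0807). They were lost without differentiated replicate 2 as well, at log2 fold changes of 1.93 and 1.57. The same held without undifferentiated replicate 2, at 1.66 and 1.25. Zfp423 also lost its call without differentiated replicate 1, at 2.56. Acss2, which makes acetyl-CoA from acetate, rose 4.07-fold (2.02 ± 0.50 SE, adjusted p = 0.0308), and Slc25a1, the mitochondrial citrate carrier, was 3.42-fold lower (-1.77 ± 0.48 SE, adjusted p = 0.0464). The calls of Acss2 and Slc25a1 were lost without any 1 of 5 arrays, all but undifferentiated replicate 1, with adjusted p up to 0.33 for Acss2 and 0.38 for Slc25a1. With all probes of the gene averaged in place of the brightest alone, the log2 fold change was 0.99 for Acss2 (adjusted p = 0.314, over all settings 0.00166 to 0.859) and 1.02 for Zfp423 (adjusted p = 0.257, over all settings 0.00204 to 0.909), and both calls were lost. Normexp and the setting with dim probes kept in ended the calls of Nr1h3, Zfp423, Acss2 and Slc25a1. Bscl2, the seipin needed to form droplets, was at -2.81 and -2.42 in undifferentiated osteoblasts and not well above background in differentiated osteoblasts, and was at least 9.84-fold lower there (adjusted p = 0.00527). It was above background in 1 treated array besides, so the filter kept it without any differentiated array. The call was lost without undifferentiated replicate 2 (adjusted p = 0.0848) and under normexp, where the log2 fold change of -1.62 lay below that bound (adjusted p = 0.239). Over all settings the adjusted p ranged from 8.51e-07 to 0.851. None of the 12 genes of fatty acid oxidation, 10 brakes on adipogenesis or 11 other uptake genes passed in this comparison.

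Markers of other cells moved in the same cultures. Of 11 macrophage and osteoclast markers with a probe, all tested, 5 rose with differentiation and none differed with cabozantinib at an adjusted p under 0.05 (0 also had an unadjusted p under 0.05). Over all genes tested, 5.26% rose with differentiation and 2.48% were called with cabozantinib. The 5 were Mrc1, the mannose receptor (39.7-fold), Adgre1, the F4/80 antigen (16.4-fold), Acp5, tartrate-resistant acid phosphatase (10.1-fold), Tyrobp, an adaptor of myeloid receptors (8.73-fold), and Csf1r, the receptor of M-CSF (7.15-fold). The Csf1r call was lost without undifferentiated replicate 2 (adjusted p = 0.0548), without differentiated replicate 2 (0.157), with dim probes kept in (0.0506) and with the mean of its probes (0.335, at a log2 fold change of 0.99), and its adjusted p over all settings ranged from 0.001 to 0.907. The summed signal of the 11 markers was 103 and 60.9 in undifferentiated osteoblasts, 400 and 551 in differentiated osteoblasts and 360 and 438 with cabozantinib, with the most signal from the Csf1r probe. No marker of this list was below background on every array. The macrophage sum was thus higher in the same arrays as Cd36, Lpl, Fabp4, Fabp5, Pparg, Nr1h3 and Apoe, and its part in their rise was not tested.

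Most osteoblast markers were well above background on all 6 arrays. The exceptions were Runx2 and Sp7, transcription factors of the lineage. Runx2 was at -4.54 and -5.21 in undifferentiated osteoblasts, was not well above background in either differentiated array, at -7.54 and -6.04, and was so in 1 treated array. Sp7 was not well above background in differentiated array 1 or cabozantinib array 1. With differentiation Runx2 was at least 1.97-fold lower (adjusted p = 0.0777) and Sp7 differed by -1.85 on the log2 scale (adjusted p = 0.0699), and neither passed. All 10 markers with a probe were tested, and their summed signal was 574 and 270 in undifferentiated osteoblasts, 406 and 597 in differentiated osteoblasts and 502 and 594 with cabozantinib, with the most signal from the Col1a1 probe. The late markers Phex (83.3-fold), Bglap2, an osteocalcin gene (33.4-fold), Dmp1 and Ibsp rose with differentiation and Spp1 fell. Both normexp and leaving out undifferentiated replicate 2 ended the calls of Dmp1, Ibsp and Spp1, and that of Spp1 was also lost without the replicate block (adjusted p = 0.0548). The adjusted p reached 0.881 for Dmp1, 0.866 for Ibsp and 0.897 for Spp1 over all settings. Endothelial markers were dim, with a sum of 1.53 and 1.01 in undifferentiated osteoblasts, 1.44 and 1.77 in differentiated osteoblasts and 0.941 and 1.12 with cabozantinib. The Kdr probe gave the most signal of these 8, and Tek and Tie1 were not well above background on any array. Cdh5, VE-cadherin, was the 1 endothelial marker called in either comparison, 4.53-fold higher with differentiation (adjusted p = 0.0229) and 5.29-fold lower with cabozantinib (adjusted p = 0.0477). The cabozantinib call was lost without any 1 of the differentiated or treated arrays and under normexp, quantile normalization, the authors' table, no filter and the methods' t-test (adjusted p from 0.00506 to 1 over all settings). The differentiation call was lost without either differentiated array and under normexp, no filter and the methods' t-test (0.00451 to 0.991). Endothelial cells of small vessels in fat also express Cd36 and Fabp4, and the part of such cells in the values of these genes was not tested.

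**Figure D4:**
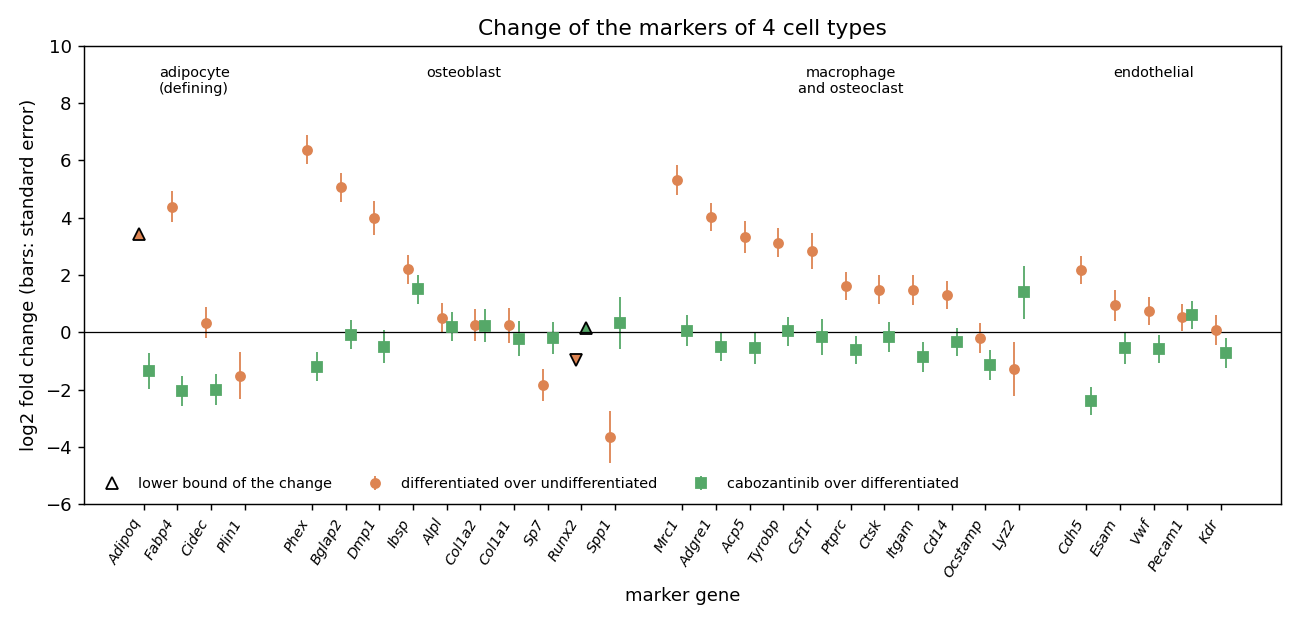
Log2 fold change (y axis, bars are the standard error) of the tested markers of adipocytes, osteoblasts, macrophages and osteoclasts, and endothelial cells (x axis), with circles for differentiated over undifferentiated osteoblasts and squares for cabozantinib over differentiated osteoblasts, and triangles without a bar at the lower bound of a change where 1 group was not well above background. Mrc1 and Adgre1 lie near 5 and 4 with differentiation and near 0 with cabozantinib, whereas Fabp4 lies at 4.38 and -2.05.

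Since several of these genes rose together, the 250 bases before their start of transcription were read. The RefSeq promoter table, on build GRCm38.p6, holds 28 of the 40 genes and 5 of the 10 that rose. Adrb3, Cidea, Dgat1, Dgat2, Fabp4, Fabp5, Gpd1, Lpl, Orm1, Scd1, Scd2 and Slc2a4 have no entry. The promoters of Pparg, Cd36 and Adipoq are shown, as the regulator, the uptake gene with the largest rise and the adipokine that appeared. Capitals mark matches on either strand to AGGTCA, the half-site bound by nuclear receptors such as PPARγ, to TTGCNNAA, the core of the C/EBP site, and to CCAAT, the box bound by NF-Y.
Cd36, chr5:17835897-17836146, minus strand: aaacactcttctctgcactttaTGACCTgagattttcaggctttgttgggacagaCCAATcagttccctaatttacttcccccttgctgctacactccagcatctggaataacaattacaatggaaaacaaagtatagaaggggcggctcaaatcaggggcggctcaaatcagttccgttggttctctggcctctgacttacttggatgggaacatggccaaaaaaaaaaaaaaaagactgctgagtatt
Adipoq, chr16:23146286-23146535, plus strand: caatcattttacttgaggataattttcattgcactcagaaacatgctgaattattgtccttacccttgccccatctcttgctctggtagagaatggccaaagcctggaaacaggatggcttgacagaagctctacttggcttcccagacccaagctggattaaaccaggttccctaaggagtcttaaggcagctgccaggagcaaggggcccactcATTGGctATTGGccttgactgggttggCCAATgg
Pparg, the last of 3 starts listed, chr6:115421816-115422065, plus strand: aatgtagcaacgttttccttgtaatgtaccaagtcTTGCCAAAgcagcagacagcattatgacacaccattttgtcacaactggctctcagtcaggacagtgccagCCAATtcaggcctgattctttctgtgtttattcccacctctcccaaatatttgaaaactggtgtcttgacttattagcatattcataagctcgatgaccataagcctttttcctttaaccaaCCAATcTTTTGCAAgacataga

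The Cd36 window held an AGGTCA match 228 bases before the start and a CCAAT match 195 bases before it. In the Adipoq window 3 CCAAT matches lay within 34 bases of the start. The Pparg window held TTGCNNAA matches 215 and 16 bases before the start and CCAAT matches 144 and 22 bases before it. The other starts listed for Pparg each had an AGGTCA match, 28 and 9 bases before the start. Among all 32851 promoters of the table, 14.0% held AGGTCA, 9.56% TTGCNNAA and 33.8% CCAAT in these 250 bases. Of the 5 genes that rose and have an entry, 2 held AGGTCA, 1 held TTGCNNAA and all 5, with Klf15 and Plin4, held CCAAT. Of all 28 genes of the list with an entry, 9 held AGGTCA, 4 TTGCNNAA and 12 CCAAT in at least 1 listed promoter. A gene with several listed promoters can match in any of them, so these counts do not compare with the shares of promoters. Counted by promoter, 11 of the 38 of these genes held AGGTCA, 4 TTGCNNAA and 14 CCAAT. Such a match is a string of letters, and binding was not measured.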

How the data were processed

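RNA of 6 samples, 2 per group, was hybridised to 1-colour Agilent whole mouse genome arrays. The deposited scanner files hold intensity values that, per the file headers, Feature Extraction 11.0.1.1 background-subtracted and detrended without scaling between arrays. The deposited value table of the authors holds log2 values of 30439 probes, with scaling and centring not given in the sources used here; it served as an alternative only. Probes were named through RefSeq accessions, which named 69.1% of 39429 probes.

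Control spots and outlier spots were left out, the remaining spots of a probe were averaged on the log2 scale, and each array's 75th percentile was subtracted. A further 40 probes that passed the filter on dim signal were dropped, because outlier spots left them without a value on an array. The 27196 probes well above background on at least 2 arrays were tested with limma 3.58.1 in R 4.3.3, with condition and replicate number as terms over all 6 arrays, and Benjamini-Hochberg adjustment over all probes. The fit had 2 residual and 7.67 prior degrees of freedom. A gene was read at its brightest probe. The block comes from the paired test named in the study's statistics section, and the labels do not say what a replicate number shares. The correlations of the replicate differences were -0.51, -0.53 and 0.26 between pairs of groups, so the numbers were not shown to pair the arrays.

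Genes named are the 40 of the list, with full values for those past the threshold in any comparison and 11 fixed genes, and the pathway genes past it with differentiation or between treated and untreated cultures. The genes and lists were chosen with earlier results of these data known. Alternatives were normexp background correction, quantile normalization, the authors' values, other filters, no block, the mean of a gene's probes, only the arrays compared, the methods' t-test and each array left out. Normexp used the median spot signal, so it changed the input as well. The fit was tested on simulated data. Promoters were read with Python 3.11.15 and pandas 2.3.3 and figures drawn with matplotlib 3.10.9.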

Additional observations from a re-analysis of the deposited data

How the results depend on the processing

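The counts, the medians and the changes of the genes with full values were recomputed with 1 choice changed at a time, except that normexp also took another input signal. With 2 arrays a group the precision is low, and genes near background are bounded only by the scanner's call. For differentiated against undifferentiated osteoblasts, 11 of the 40 genes and 2242 of all genes were called. Normexp background correction left 5 and 674, and no filter on dim probes 7 and 1415. Leaving out 1 array gave 6 to 14 and 1350 to 4398, with medians of the list from 0.09 to 1.08. Cd36, Fabp4, Gpd1 and Lpl were called without any 1 array. The fewest were called without undifferentiated replicate 2.

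For cabozantinib against differentiated osteoblasts, 1 and 572 were called. Normexp, quantile normalization, the authors' values and no filter each gave 0 and 0, and probes above background on all 6 arrays, a filter that removes Ppargc1a, gave 0 and 2. The mean of a gene's probes gave 2 and 1105, only the arrays compared 4 and 5544, and 1 array left out 0 to 4 and 41 to 5544, with medians from -0.65 to -0.10, the last without differentiated replicate 2. For cabozantinib against undifferentiated osteoblasts, 8 and 3079 were called, against 2 and 464 with normexp (median of the list 0.14). Quantile normalization called 1311 genes, the authors' values 1311, no filter 1174 and probes above background on all 6 arrays 1350. With 1 array left out, 4 to 12 and 692 to 8503 were called, with medians from 0.16 to 0.49. The cause of these moves was not tested.

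Without the replicate block, the paired term, 12 and 3092 were called with differentiation, 4 and 2947 for cabozantinib against differentiated and 13 and 5565 for cabozantinib against undifferentiated osteoblasts. With the undifferentiated numbers exchanged, a setting with the replicate block chosen after seeing the data, the counts were 18 and 6025, 6 and 7049, and 20 and 10292. The methods' t-test, paired by number, gave 0 and 0 in each comparison after Benjamini-Hochberg adjustment, and at the methods' threshold of 2-fold and an unadjusted p 1 and 857, 1 and 2326, and 5 and 1250.

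The median of all genes for cabozantinib against differentiated osteoblasts moved from -0.29 to -0.08 under quantile normalization, where the list's median was -0.26. For cabozantinib against undifferentiated osteoblasts it moved from -0.35 to -0.12, where the list's was 0.50. With differentiation it moved from 0.11 to -0.06 under normexp, where the list's was 0.28. Of the named genes, Fasn turned to -0.22 under normexp for cabozantinib against undifferentiated osteoblasts. Of the 24 genes recomputed with full values, all other changes of sign came with 1 array left out, each of a gene whose change was not called. Of the other members and markers named with an alternative, several turned at settings with all arrays, and none was called there. For cabozantinib against differentiated osteoblasts, Agpat2 went from -0.32 to 0.47, Bglap2 from -0.08 to 0.05 and Sp7 from -0.19 to 0.56 under quantile normalization, and close to these with the authors' values. Acsl1 went from -0.51 to 0.02 and Adgre1 from -0.53 to 0.12 when a gene's probes were averaged, and Runx2 from 1.11 to -0.04 under normexp. Against undifferentiated osteoblasts, quantile normalization turned Cdh5 from -0.22 to 0.65 and Runx2 from -0.81 to 0.06. With differentiation, Plin1 ranged from -3.17 to 0.13 and Plin2 from -0.01 to 0.77. For cabozantinib against differentiated osteoblasts, Plin1 ranged from -2.35 to 0.55, Plin2 from -0.16 to 0.62, Apoe from -0.47 to 0.14, Nr1h3 from -0.76 to 0.29, Zfp423 from -0.05 to 0.94, Lpin1 from -1.40 to 0.06 and Bscl2 from -0.18 to 2.35. For cabozantinib against undifferentiated osteoblasts, Cebpa ranged from -0.41 to 1.24, Scd1 from -1.44 to 0.80 and Fasn from -0.13 to 0.29.

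Several called changes also moved by over 1.5 times with 1 array left out. For cabozantinib against differentiated osteoblasts, Ppargc1a ranged from -3.76 to -1.90 and Cfd from -4.43 to -2.91, at their extremes without 1 of the differentiated arrays. With differentiation, Plin4 ranged from 2.34 to 3.82, Slc2a4 from 1.41 to 3.22, Gpd1 from 2.78 to 4.08, Nr1h3 from 1.66 to 3.25, Zfp423 from 1.25 to 2.88, Cfd from 6.51 to 8.92, Bscl2 from -5.26 to -3.07 and Lpin1 from -3.92 to -1.68, all at their extremes without 1 of the undifferentiated arrays. Fabp4 ranged from 3.75 to 5.01, Adipoq from 3.46 to 5.57 and Klf15 from 3.25 to 4.42, at their extremes without 1 of the differentiated arrays. For cabozantinib against undifferentiated osteoblasts, Plin4 ranged from 1.73 to 3.21, Slc2a4 from 2.23 to 4.04, Gpd1 from 2.0 to 3.3, Cfd from 2.84 to 5.25, Adipoq from 2.51 to 3.8 and Lpin1 from -4.59 to -2.35, at their extremes without 1 of the undifferentiated arrays. Under normexp Cd36 was at 3.97 there, against 5.02, and with averaged probes Lpl was at 3.18, against 4.36.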
